A study of Macaca mulatta with 24 samples.

Results

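Ileum taken on day 12 after total-body irradiation (TBI) was compared with ileum taken on day 4 after TBI, with the animals of both doses pooled and dose kept as a block. The comparison uses all 4 arrays of day 12 and all 8 irradiated arrays of day 4, chosen by day and dose in the sample titles, which is 12 of the 24 ileum arrays analysed here. On day 12 there were 2 animals after 6.7-Gy TBI and 2 after 7.4-Gy TBI, and on day 4 there were 4 after each dose. All were young adult male Rhesus macaques that had received a single uniform dose of cobalt-60 gamma radiation. The other arrays, 4 of unirradiated animals and 8 of animals killed on day 7, entered the estimate of the spread and are given where a level needs a reference. Each array held total RNA of 1 animal, so that p-values measure the spread between animals, and no animal was sampled on both days. The protocol text names 21 days in place of 12, and the day given by titles, day field and methods was used.

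The lining of the ileum is renewed within days from dividing cells in the crypts, which move up the villus as they mature into absorptive enterocytes and secretory cells. Ionizing radiation breaks DNA, stabilizes the transcription factor p53 and stops or kills dividing crypt cells, so that the villus is supplied with fewer new cells until the surviving crypts regrow. Genes of absorption, division, p53 response, inflammation and connective tissue therefore describe the state of the same tissue from several sides. In RNA of whole tissue, a lower level can come from fewer cells of a type or from less RNA in each cell, and these cannot be told apart.

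Levels are given as log2 of the background-subtracted array signal over the 75th percentile of the array, so that 0 is the level of a fairly bright probe and a step of 1 is a 2-fold change. A difference is the mean of the day 12 minus day 4 differences at the 2 doses, on the log2 scale, with its standard error (SE) from limma's fit over 24 arrays. A probe was called, and a gene is said to have risen or fallen, at an adjusted p under 0.05 (limma, Benjamini-Hochberg over all 36108 tested probes) with a change of at least 2-fold. Markers of ileum were present on every array, among them the bile acid binding protein FABP6 at 8.33 to 9.19 on day 12 and 7.00 to 8.57 on day 4. The gastric gene GKN1 and the colonic gene CA1 were well above background on 0 of 24 arrays. Other markers of neighbouring organs were present, with TFF2 of stomach, PRSS1 of pancreas and SLC26A3 of colon on 24 arrays and AQP8 of colon on 22. SLC26A3 read 0.96 to 1.42 on day 12 and -1.87 to 0.92 on day 4, and its part in the results was not tested.

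1 array of day 4 stood apart from the others. In the 6.7-Gy animal of replicate 4, the median level of brush border enzymes was 2.31 below the mean of the controls on the log2 scale (a value of -2.31), against -0.96 to 0.41 in the other 7 animals of day 4, and that of S phase genes was 1.15, against -0.13 to 0.45. Without this array 925 probes were called in place of 994, of which 777 were the same, with 446 higher and 479 lower, and for several groups the median or the count without it is given beside the group. Well above background lay 79.3% to 85.9% of probes on day 12 and 72.7% to 87.3% on day 4, and the means of 82.4% and 81.2% were not distinguished (two-sided exact permutation within doses, p = 0.716). The 75th percentile to which all levels refer was lower on day 12, at a geometric mean intensity of 1011 against 1185 (p = 0.0133, the same exact test on the log2 scale). All 4 arrays of day 12 lay in position 4 of their slides and all irradiated arrays of day 4 in positions 1 and 2, so that position as a factor and day cannot be told apart.

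Between day 4 and day 12, 994 of 36108 probes were called, which is 2.75%. Of these 557 were higher on day 12 (1.54% of those tested) and 437 were lower (1.21%). With quantile normalization in place of the 75th percentile 1046 probes were called and the share that was higher went from 56.0% to 43.1%, and without the 3 day 4 arrays of fewest detected probes it was 40.3% (431 higher and 639 lower), so the balance of rises and falls depends on the scaling and on these arrays. Counted by gene, with the brightest tested probe standing for each, 401 of 12963 were called (3.09%), with 192 higher (1.48%) and 209 lower (1.61%). Over the called probes the median difference was 1.23 for those higher on day 12 and -1.25 for those lower. Over all genes tested the median was 0.05, with 7082 differences positive and 5881 negative. For 231 of the 401 called genes the 4 animals of day 12 all lay on the same side of all 8 animals of day 4, which was so for 9.65% of all genes (5.36% higher and 4.29% lower on day 12) and for 8.3% of all probes (5.04% and 3.26%). With normexp background correction 409 probes were called, 385 of them among the 994, and 22 of the named genes lost their call. These were A2M, BMP7, CFAP210, CLSPN, COL1A2, CTSL2, EPHB3, ERG, FGF10, FGF7, GATA2, GDF3, IL17RB, LCT, LSMEM1, NR1I3, OCLN, REG3G, TAP1, THBS1, TNFAIP6 and TNFRSF13C. A fit of the 12 compared arrays alone, with day and dose, called 750 probes, 710 of them among the 994, with 50.3% higher. In that fit 17 of the named calls were lost, at adjusted p from 0.0506 to 0.108, namely those of CCL23, CCR7, CD55, CXCL1, CXCL8, CYP4F12, DAK, ENPEP, GSTA1, LCT, MEP1A, NR1H4, NR1I3, PYY, SLC1A1, SLC23A2 and TNFAIP6. The count of called probes fell to 594 without the 7.4-Gy animal of replicate 1 on day 12, of which 497 were among the 994.

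**Figure D1:**
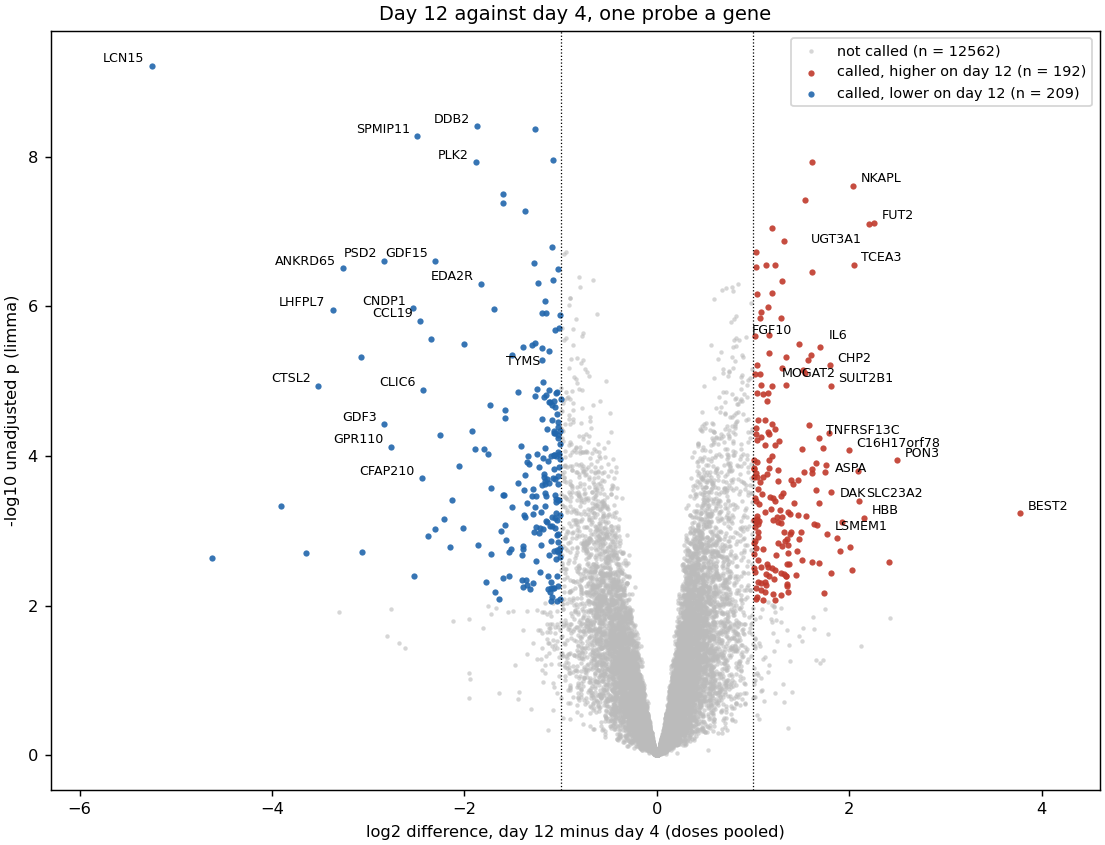
Log2 difference between day 12 and day 4 (x axis, doses pooled) against -log10 of limma's unadjusted p (y axis) for 12963 genes, each by its brightest tested probe. Red and blue points are the 192 genes called higher and the 209 called lower on day 12, and dotted lines mark 2-fold changes. LCN15 lies farthest to the left at -5.25 and BEST2 farthest to the right at 3.78.

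The largest fall was that of LCN15, a lipocalin, one of a family of small secreted proteins that carry lipophilic molecules. On day 12 LCN15 stood at -4.39 and -3.99 in the 6.7-Gy animals and at -5.33 and -4.38 in the 7.4-Gy animals, against -1.16 to 1.96 with a median of 1.13 on day 4. The largest falls and rises were named only among called genes whose animals of the 2 days do not overlap. The level of LCN15 fell 38.1-fold (difference -5.25, SE 0.48, adjusted p = 8.71e-06). The 4 controls lay at -6.21 to -5.12 and the animals of day 7 at -3.34 to -1.07, so that day 12 lay below all of day 7 and overlapped with the controls in 1 animal. The fall was -4.27 at 6.7 Gy and -6.23 at 7.4 Gy, and leaving out any 1 animal gave -5.49 to -5.01.

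Other large falls were of genes that lay higher on day 4 than in any control. CNDP1, a dipeptidase that cleaves carnosine, read -4.22, -3.30, -3.26 and -3.30 on day 12 and -1.62 to 0.33 on day 4 (median -1.29), a 5.78-fold fall (SE 0.37, adjusted p = 0.000369). CLIC6, of the chloride intracellular channel family, fell 5.39-fold, from -2.31 to 0.25 on day 4 to -4.88, -3.91, -3.74 and -3.63 on day 12 (SE 0.42, adjusted p = 0.00141). For both genes every animal of day 12 was below every animal of day 4, as the choice of the largest falls required. PSD2, an exchange factor for small GTPases of the ARF family, fell 7.12-fold (SE 0.37, adjusted p = 0.000181), from a median of -2.36 on day 4 to -5.99 to -4.66 on day 12, where 3 of 4 arrays were well above background. ANKRD65 fell 9.58-fold (adjusted p = 0.000192) and was well above background on 1 of 4 control arrays but on all 12 arrays of day 4 and day 12. GPR110, an adhesion G protein-coupled receptor, fell 6.79-fold from a median of -2.0 (adjusted p = 0.00352).

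Some genes fell to the limit of detection. CTSL2, a cathepsin of lysosomes, was well above background on 8 of 8 arrays of day 4, at -5.39 to -3.35, and on 0 of 4 arrays of day 12, so that its level was at least 4.32-fold lower (adjusted p = 0.0013). CFAP210, a gene of ciliary and flagellar microtubules, was above background on 7 of 8 arrays and then on 0 of 4, at least 2.0-fold lower (adjusted p = 0.00579). LHFPL7 fell 10.3-fold, from a median of -2.98 to -6.71, -6.57, -5.47 and -6.71 (SE 0.49, adjusted p = 0.000377), and GDF3, a ligand of the TGF-beta family, fell 7.14-fold from a median of -4.39 (adjusted p = 0.00249). Each of these last genes was well above background on 1 of 4 arrays of day 12, so their measured levels there are close to background. SPMIP11, another microtubule gene, fell 5.62-fold with all arrays above background (SE 0.26, adjusted p = 2.13e-05). With normexp background correction the calls of CTSL2 (difference -0.69), CFAP210 (-0.33) and GDF3 (-0.70) were lost.

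The largest rise was that of BEST2, an anion channel of the bestrophin family known from mucus-secreting cells of the gut. BEST2 stood at -0.16, 0.41, -0.78 and -0.95 on day 12 and at -7.20 to -1.36 on day 4 (median -4.28). The animals of day 4 were spread widely, with 7 of 8 well above background. All lay below day 12, as the choice of the largest rises required, and the rise was 13.7-fold (difference 3.78, SE 0.92, adjusted p = 0.0103). The controls lay at -3.89 to -2.04, below all 4 animals of day 12.

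Other large rises went from a level on day 4 below the controls to one near or above them. FUT2, the fucosyltransferase that builds the H antigen on mucosal glycans, read -0.80, -0.68, -1.65 and -1.18 on day 12, -4.49 to -2.61 on day 4 (median -3.19) and -1.54 to -1.18 in the controls. It rose 4.79-fold with little spread (SE 0.27, adjusted p = 9.07e-05), by 2.50 at 6.7 Gy and 2.02 at 7.4 Gy. PON3, a lactonase of the paraoxonase family, rose 5.65-fold to 1.90, 3.56, 2.90 and 2.87 from a median of 0.59 (SE 0.52, adjusted p = 0.00437). TCEA3, a transcription elongation factor, rose 4.13-fold to between 3.19 and 3.68 from a median of 1.35 (SE 0.27, adjusted p = 0.000189), and its other tested probes rose by 1.93 and 1.51. SLC23A2, a sodium-dependent vitamin C transporter, rose 4.29-fold to between 0.31 and 0.96 from a median of -1.11 (adjusted p = 0.0084), but its dimmer second probe differed by 0.28 and was not called.

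SULT2B1, which sulfonates cholesterol and related sterols, rose 3.51-fold (adjusted p = 0.0013), and CHP2, a binding partner of sodium-proton exchangers, rose 3.47-fold (adjusted p = 0.000942). DAK, the kinase of dihydroxyacetone in fructose breakdown, was among the brighter genes and rose 3.50-fold, from a median of 4.69 to 6.26, 6.24, 6.30 and 5.57 (SE 0.41, adjusted p = 0.00723). ASPA, which cleaves N-acetylaspartate, rose 3.38-fold (adjusted p = 0.00475), and LSMEM1, a membrane protein, rose 3.41-fold from near background (adjusted p = 0.0149), a call lost with normexp (difference 0.67). Without the 7.4-Gy animal of replicate 1 on day 12 the calls of DAK (difference 1.63, adjusted p = 0.0522) and LSMEM1 (1.58, adjusted p = 0.0846) were lost, and that of LSMEM1 was also lost without the 6.7-Gy animal of replicate 1.

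A pair of the largest rises went past every other array of the series. NKAPL, a relative of the transcriptional regulator NKAP, stood at -0.39, -0.57, -0.49 and -1.34 on day 12, at -2.98 to -1.92 on day 4 and at -2.98 to -1.68 over all 20 other arrays (4.11-fold, SE 0.23, adjusted p = 5.21e-05). C16H17orf78 rose 3.98-fold to between 0.35 and 0.56, where the highest of the other arrays was a control at 0.11 (SE 0.41, adjusted p = 0.00374). Of all 994 called probes, 47 had their 4 animals of day 12 outside the other 20 arrays, with 29 above and 18 below. The same share over all 36108 tested probes was not counted, so these 47 cannot be called many or few.

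**Figure D2:**
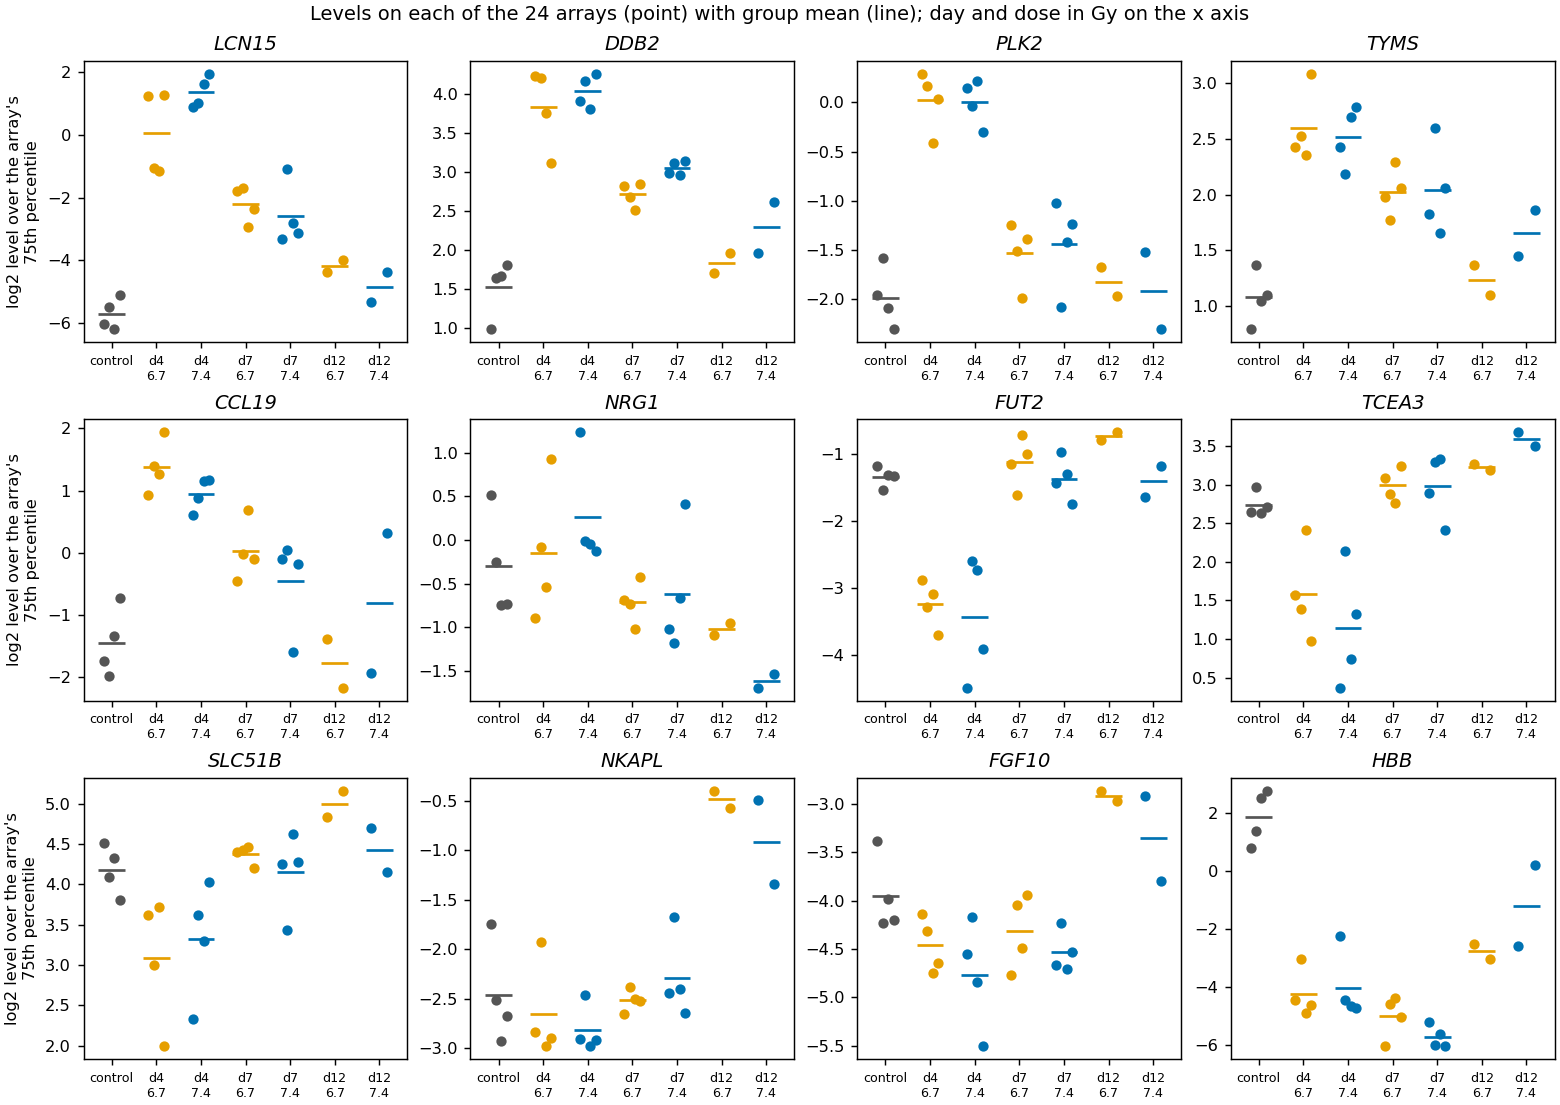
Log2 levels over the array's 75th percentile (y axis) of 12 genes on all 24 arrays, by group (x axis: control, then day and dose in Gy), with 1 point for each animal and a line at the group mean, grey for controls, orange for 6.7 Gy and blue for 7.4 Gy. LCN15, DDB2, PLK2 and TYMS fell from day 4 to day 12, FUT2, TCEA3 and SLC51B rose, and NKAPL on day 12 lay above all 20 other arrays.

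Calls in the gene groups stand beside 3.09% of all genes called, 1.48% higher and 1.61% lower. Among 22 tested targets of p53, 7 fell and 0 rose (31.8% called), and 19 of 22 differences were negative with a median of -0.40. Those that fell act in several branches of the response. DDB2, which recognizes UV-type damage in nucleotide excision repair, read 1.71, 1.96, 1.96 and 2.62 on day 12 against 3.12 to 4.26 on day 4 (median 4.04), a 3.65-fold fall (SE 0.19, adjusted p = 2.13e-05). PLK2, a kinase of the polo family, stood at -1.68, -1.97, -1.52 and -2.30 against -0.41 to 0.29 (3.69-fold, SE 0.20, adjusted p = 3.29e-05). No animal of day 12 reached the lowest of day 4 for either gene, and both were near the controls (0.98 to 1.80 for DDB2, with 3 animals of day 12 above them, and -2.31 to -1.58 for PLK2, with 1 above).

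EDA2R, a death receptor of the TNF receptor family, fell 3.55-fold to -1.17, -1.18, -1.22 and -0.95 from a median of 0.80 (SE 0.25, adjusted p = 0.000254), yet stayed above the controls at -3.69 to -2.39. GDF15, a secreted stress cytokine, read 1.36, 2.89, 0.97 and 0.99 on day 12 and 2.84 to 4.65 on day 4, a 4.93-fold fall (SE 0.30, adjusted p = 0.000181). The 6.7-Gy animal of replicate 2 overlapped with day 4, and all 4 animals remained above the controls, at -0.30 to 0.08. PHLDA3, an inhibitor of AKT signalling (difference -1.60), ZMAT3, an RNA-binding regulator of splicing (-1.27), and TIGAR, which lowers glycolytic flux (-1.16), also fell. The death receptor FAS (-0.95, adjusted p = 0.000596) and the pore-forming BAX (-0.70, adjusted p = 0.00112) passed the adjusted p but not the 2-fold limit. The cell cycle inhibitor CDKN1A and the p53 ligase MDM2 differed by -0.25 (adjusted p = 0.388) and -0.09 (adjusted p = 0.721). Without the standing-apart array of day 4, 7 genes were called and the median of the group was -0.45.

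Of the genes of cell division, none of G2/M and 6.67% of S phase were called, against 3.09% of all genes. Of 31 genes of G2/M and mitosis none was called at the 2-fold limit and the adjusted p, and their differences ran from -0.67 to 0.39 with a median of -0.10, which turned to 0.03 without the day 4 animal of replicate 4 after 6.7 Gy. The median was -0.35 at 6.7 Gy and 0.14 at 7.4 Gy. CDK1, the mitotic kinase, read -1.13, -1.02, -0.99 and -0.27 on day 12 and -1.54 to 0.30 on day 4. CCNB1, its cyclin partner, differed by -0.46 (SE 0.25, adjusted p = 0.199). Of 30 genes of S phase 2 fell and 0 rose (6.67% called), with a median of -0.39, which was -0.62 at 6.7 Gy and -0.06 at 7.4 Gy. Without the standing-apart array of day 4 the median was -0.28 and 1 gene was called. TYMS, which makes thymidylate for DNA synthesis, was at 1.37, 1.1, 1.44 and 1.86 on day 12 and at 2.19 to 3.08 on day 4, a 2.17-fold fall without overlap (SE 0.18, adjusted p = 0.000715), and its 3 other tested probes fell too. CLSPN, an adaptor of the replication checkpoint, fell 2.07-fold (SE 0.25, adjusted p = 0.00819), a change that missed 2-fold without the day 4 animal of replicate 4 after 6.7 Gy (difference -0.92), as it did without 2 other animals and with normexp (-0.54).

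Of 12 crypt stem cell genes 1 fell (8.33% called, against 3.09% of all genes). EPHB3, a guidance receptor that holds cells in the crypt base, fell 2.05-fold, from a median of -0.71 to -1.77, -1.63, -1.94 and -1.37 (SE 0.21, adjusted p = 0.00381), with no overlap. ASCL2, the transcription factor of intestinal stem cells, had a difference of -0.95 (SE 0.17, adjusted p = 0.00145) and lay just short of the 2-fold limit, while the Wnt co-receptor gene LGR5 differed by 0.24 (adjusted p = 0.181). OLFM4, another stem cell marker, ranged widely on day 4 (mean -4.21 ± 2.73 SD, n = 8) and its difference of -2.68 was not called (adjusted p = 0.108). The call of EPHB3 was lost without any 1 of 4 animals, among them the standing-apart one of day 4, with a difference of -0.89 without the 7.4-Gy animal of replicate 1 on day 12. Among 8 regeneration signals 1 fell (12.5% called). NRG1, a ligand of ERBB receptors, fell 2.58-fold by its brightest probe, to -1.08, -0.94, -1.69 and -1.53 from a median of -0.06 (SE 0.34, adjusted p = 0.0111), but its 4 other probes differed by -0.34 to 0.33 and were not called. That call was lost without the 7.4-Gy animal of replicate 1 on day 12 (adjusted p = 0.056).

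Genes of the absorptive surface had mostly positive differences, most of them not called, where 3.09% of all genes were called. Of 16 brush border enzymes 14 had positive differences, with a median of 0.54, but 2 rose and 1 fell (18.8% called). ENPEP, the glutamyl aminopeptidase, read 7.15, 7.62, 6.80 and 6.79 against 4.23 to 6.56 (2.14-fold, SE 0.30, adjusted p = 0.0194), and MEP1A, a subunit of meprin, read 4.41, 4.12, 4.68 and 4.24 against 1.18 to 3.95 (2.19-fold, SE 0.35, adjusted p = 0.0303). Day 12 was above day 4 in all animals for both. Without the standing-apart array of day 4 neither was called, with differences of 0.83 for ENPEP and 0.82 for MEP1A, and the median of the group was 0.24. The call of ENPEP was lost without any 1 of 3 animals (adjusted p up to 0.0835) and that of MEP1A without any 1 of 6 (adjusted p up to 0.13). The other probe of MEP1A differed by 0.96 and was not called (adjusted p = 0.0815). VIL1, the actin bundler of microvilli, and MYO1A, their myosin, differed by 0.94 (adjusted p = 0.00158) and 0.97 (adjusted p = 0.00645) with no overlap. LCT, lactase, went the other way, at -3.45, -3.56, -3.69 and -3.34 on day 12 and -4.33 to -0.46 on day 4 (2.56-fold lower, SE 0.42, adjusted p = 0.0337), and its second, dimmer probe fell by 4.39 on the log2 scale (adjusted p = 0.000369). The animals overlapped, the controls lay at -3.82 to -3.36, and the call of LCT was lost without any 1 of 6 animals (adjusted p up to 0.128).

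The ileum takes up bile acids through a transporter, a binding protein and a basolateral exporter under the receptor FXR. In this group of 12 genes 2 rose and 0 fell (16.7% called), with a median of 0.59, or 0.38 without the standing-apart array. The median was 0.98 at 6.7 Gy and 0.15 at 7.4 Gy. SLC51B, a subunit of the exporter, stood at 4.84, 5.16, 4.70 and 4.15 on day 12 and at 1.99 to 4.03 on day 4 (median 3.46), a 2.85-fold rise without overlap (SE 0.31, adjusted p = 0.00366). NR1H4, which encodes FXR, rose 2.76-fold to 3.52, 3.03, 3.06 and 3.53 from a median of 1.87 (SE 0.36, adjusted p = 0.0107), with the highest animal of day 4 at 3.07, and lost its call without the 6.7-Gy animal of replicate 1 on day 12 (adjusted p = 0.0554). The transporter SLC10A2 (0.89, adjusted p = 0.0889) and FABP6 (0.53, adjusted p = 0.0757) were not called. NR0B2, a repressor induced by FXR, had a difference of -1.14 (adjusted p = 0.063), opposite in sign to the others.

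Of 18 genes of fat absorption 1 rose (5.56% called, against 3.09% of all genes). It was MOGAT2, which reassembles dietary triglyceride, at 1.82, 1.24, 1.91 and 1.64 against -0.71 to 0.88 (2.53-fold, SE 0.22, adjusted p = 0.00082). The median of the fat absorption group was 0.01 and turned negative under 6 of 31 alternatives, with -0.20 without the standing-apart array of day 4. Of 13 sugar, amino acid and peptide transporters 1 rose (7.69% called). The glutamate transporter SLC1A1 rose 2.22-fold (SE 0.34, adjusted p = 0.0271), with overlap and with its call lost without any 1 of 4 animals (difference 0.74 and adjusted p = 0.185 without the 6.7-Gy animal of replicate 2 on day 12). The median of the transporters was 0.31, or 0.20 without the standing-apart array, with 0.75 at 6.7 Gy and 0.02 at 7.4 Gy. Of 17 claudins and other tight junction genes 13 had positive differences, with a median of 0.41, and 1 rose (5.88% called). OCLN, which encodes occludin, read 0.97, 1.0, 0.53 and 0.85 against -0.73 to 0.31 (2.04-fold, SE 0.20, adjusted p = 0.00288). Because OCLN was so close to the 2-fold limit, its call was lost without any 1 of 4 animals, with differences from 0.95. Its other probe differed by 0.88 and was not called (adjusted p = 0.0685). CLDN3 (0.87), TJP3 (1.0) and MARVELD2 (0.82) passed the adjusted p without overlap and missed 2-fold, and CLDN2, a pore-forming claudin, differed by -0.77 (adjusted p = 0.0427).

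Secretory cell genes were called at 0% to 11.1% of each group, against 3.09% of all genes. None of 12 goblet cell genes was called, with MUC2, the main gel-forming mucin, at 5.45, 4.43, 5.36 and 4.69 on day 12 and 4.09 to 5.79 on day 4, and TFF3, the trefoil peptide, differing by 0.45 (adjusted p = 0.109). Of 13 Paneth cell and antimicrobial genes 1 fell (7.69% called). REG3G, a lectin that kills Gram-positive bacteria, fell 2.05-fold to 3.98, 3.68, 4.24 and 4.31 from a median of 5.17 (SE 0.27, adjusted p = 0.0153). Another probe of REG3G fell by 1.13 on the log2 scale, and its remaining probe differed by 0.23 and was not called. The call of REG3G was lost without any 1 of 5 animals (adjusted p up to 0.0657). DEFA6, a Paneth cell defensin, differed by -0.47 (adjusted p = 0.216). Of 17 enteroendocrine genes 1 rose (5.88% called). It was the hormone PYY, at 0.32, -0.10, 0.12 and 0.47 against -2.66 to -0.20 (2.54-fold, SE 0.39, adjusted p = 0.0254), although its call was lost without any 1 of the 4 animals of day 12 (adjusted p up to 0.0977). Without the standing-apart array of day 4, 2 enteroendocrine genes were called. The endocrine transcription factors PAX6 (0.90, adjusted p = 0.0015) and NEUROD1 (0.73, adjusted p = 0.00255) had smaller positive differences. Of 9 tuft cell genes 1 rose (11.1% called). IL17RB, the receptor of IL-25, rose 2.06-fold from a low level (SE 0.23, adjusted p = 0.00561) and missed 2-fold without any 1 of 4 animals (differences from 0.96), with normexp (0.45), with quantile normalization (0.93) and with slide as a fixed block (0.91).

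Genes of drug and xenobiotic metabolism had a median of 0.67, with 4 of 23 called higher and 0 lower (17.4%). The median was 0.30 and 2 genes were called without the standing-apart array of day 4, in which the level of this group was -1.93 relative to the controls. UGT3A1, a glycosyltransferase, rose 4.61-fold (SE 0.27, adjusted p = 9.07e-05), with -0.48 and -0.02 in the 6.7-Gy animals, -3.13 and -3.57 in the 7.4-Gy animals and -4.61 to -3.52 on day 4. The high animals were those of the lower dose. GSTA1, a glutathione transferase of the enterocyte, rose 2.59-fold to 5.40, 4.18, 3.92 and 4.42 from a median of 3.25 (adjusted p = 0.0255). Its other probe differed by 1.51 and was not called (adjusted p = 0.236). CYP4F12, a fatty acid hydroxylase, rose 2.22-fold (adjusted p = 0.0255), and NR1I3, the nuclear receptor CAR (0.32 and not called with normexp), rose 2.33-fold from near background, being above it on 3 of 4 and 3 of 8 arrays (adjusted p = 0.0334). The calls of GSTA1, CYP4F12 and NR1I3 were each lost without any 1 of 3 to 6 animals (adjusted p up to 0.139).

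Of 18 genes of fatty acid oxidation 15 had positive differences and 1 fell (5.56% called), with a median of 0.46, and PPARA, the receptor that induces them, differed by 0.93 (adjusted p = 0.00229). Of 19 genes of cholesterol synthesis and uptake none was called, though 18 differences were positive with a median of 0.39. HMGCS1, an early enzyme of that pathway, differed by 0.72 (adjusted p = 0.0379). Of 56 nuclear-encoded respiratory chain genes 50 had positive differences, all smaller than 2-fold (median 0.21, COX4I1 0.60), and 64 cytosolic ribosomal protein genes had a median of -0.08, with RPL3 at -0.14 and RPL4 at -0.12.

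**Figure D3:**
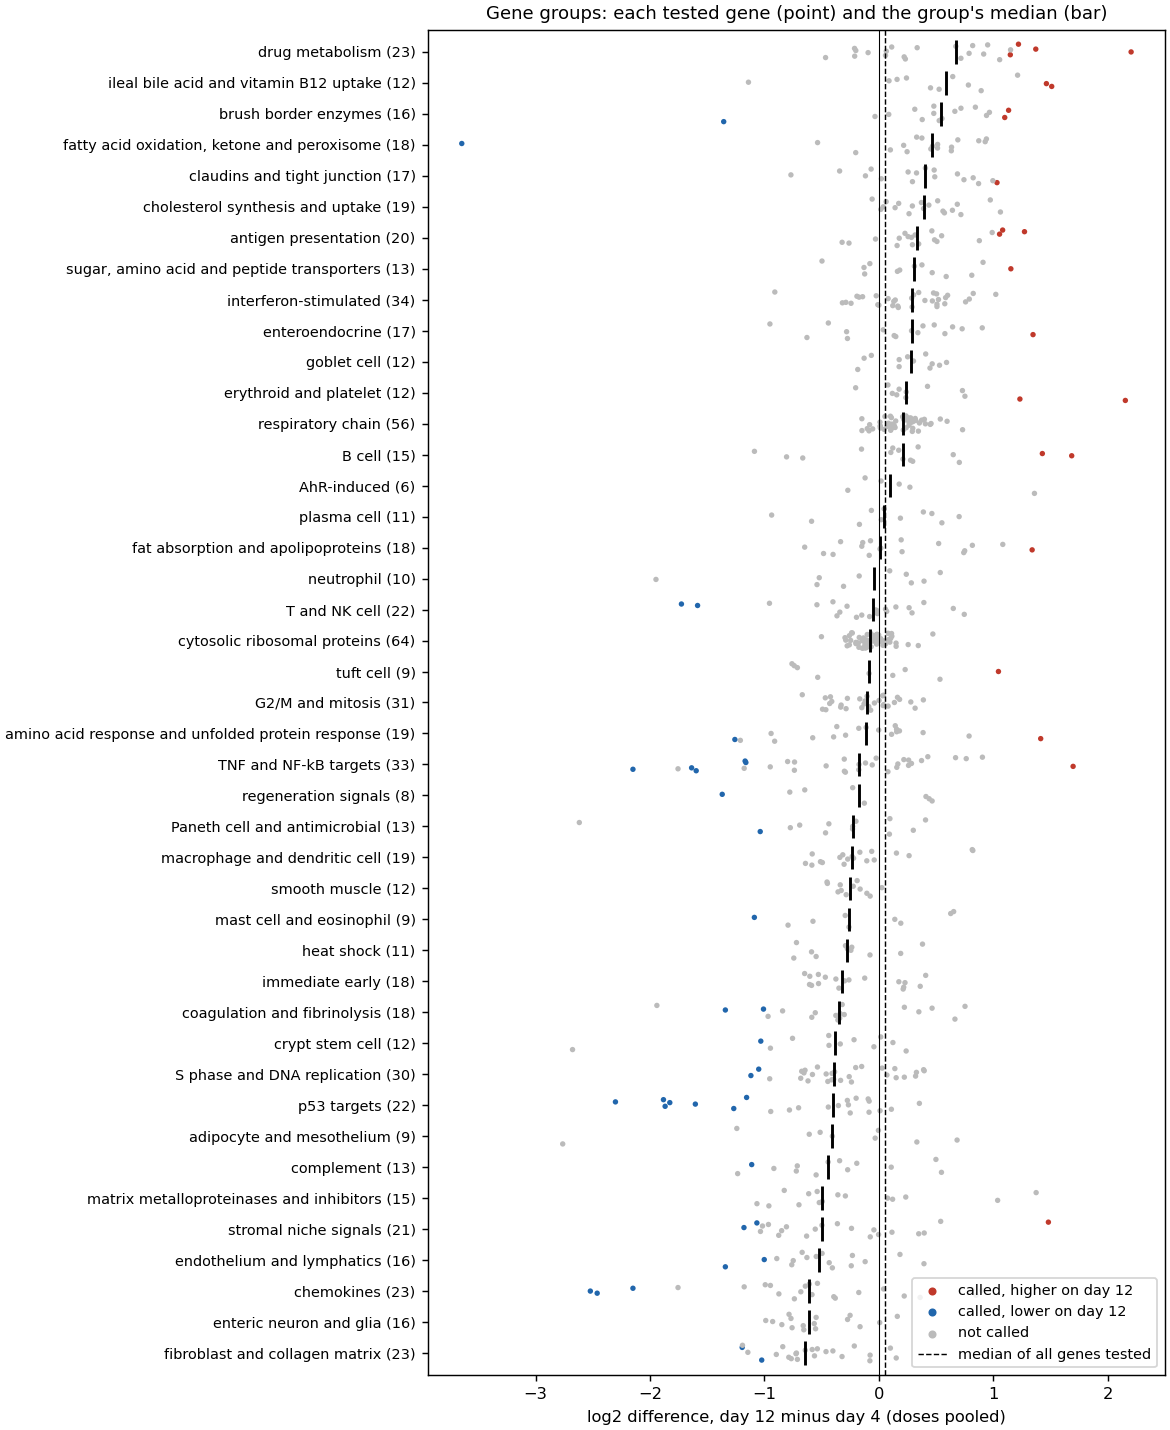
Log2 difference between day 12 and day 4 (x axis, doses pooled) of every tested gene in 43 gene groups (y axis, number of tested genes in parentheses), ordered by the group median (black bar). Red and blue points are genes called higher and lower on day 12, grey points were not called, and the dashed line is the median of all genes tested. Drug metabolism stands at one end with a median of 0.67, which was 0.30 without the day 4 array of 6.7 Gy replicate 4, and fibroblast and collagen matrix at the other with -0.64.

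Inflammatory genes were mixed. Of 33 targets of TNF and NF-kB 5 fell and 1 rose (18.2% called), with a median of -0.17. Without the standing-apart array of day 4, 3 were called and the median was -0.11. CXCL1, a chemokine that attracts neutrophils, read -2.59, -2.49, -3.85 and -3.28 on day 12 and -2.36 to 1.42 on day 4 (4.44-fold lower, SE 0.59, adjusted p = 0.0188). CXCL8, of the same class, fell 3.11-fold (adjusted p = 0.0483) with overlap, and TNFAIP6, a hyaluronan-binding protein, fell 3.02-fold (adjusted p = 0.0328) to near background, being above it on 2 of 4 arrays of day 12, and was not called with normexp (difference -0.48). The anti-apoptotic BCL2A1 (-1.17) and the early response gene IER3 (-1.16) fell as well. IL6 went the opposite way and rose 3.24-fold without overlap, to -1.94, -2.14, -1.89 and -2.83 from -4.35 to -3.19 (SE 0.27, adjusted p = 0.000673), while the controls were at -3.83 to -1.93. TNF itself differed by -0.29 (adjusted p = 0.524). The calls of CXCL1, CXCL8 and TNFAIP6 were lost without any 1 of 3, 8 and 6 animals (adjusted p up to 0.0872, 0.143 and 0.195), and 1 of the 2 other probes of CXCL8 differed by -1.20 and the other by -0.89, neither called.

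Of 23 chemokines 3 fell and 0 rose (13% called), with a median of -0.61 and 17 negative differences. Without the standing-apart array of day 4, 5 were called and the median was -0.49. CCL19, which guides CCR7-bearing lymphocytes and dendritic cells, read -1.38, -2.17, -1.94 and 0.31 on day 12 and 0.61 to 1.94 on day 4 (5.51-fold, SE 0.37, adjusted p = 0.00043), with controls at -1.98 to -0.73. The 7.4-Gy animal of replicate 2 on day 12 was close to the lowest of day 4, and the second probe of CCL19 fell as well. CCL23, a myeloid chemokine, fell 5.74-fold by its brightest probe (SE 0.78, adjusted p = 0.0315), but its level on day 4 was raised by 1 animal at 3.29, its other probe differed by 0.49, and its call was lost without any 1 of 4 animals (difference -1.72 and adjusted p = 0.211 without the 7.4-Gy animal of replicate 1 on day 12). CCL24, an eosinophil chemokine, was higher by 0.90 without overlap (adjusted p = 0.00613). Of 13 complement genes 1 fell (7.69% called). CD55, which protects cells from complement, fell 2.16-fold (adjusted p = 0.042), a call lost without any 1 of 9 animals (difference -0.66 and adjusted p = 0.238 without the 7.4-Gy animal of replicate 2 on day 12). Its other probe differed by -0.78 and was not called (adjusted p = 0.0909). None of 18 immediate early genes and 11 heat shock genes was called, with FOS at 4.03, 2.54, 3.10 and 2.74 against 1.88 to 3.43, FOSB differing by -0.35 (adjusted p = 0.485), HSPA6 by -0.74 (adjusted p = 0.128) and HSPH1 by -0.55 (adjusted p = 0.0763).

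Genes of antigen presentation had positive differences in 17 of 20 cases (median 0.33), and 3 rose (15.0% called). PSMB9, a subunit of the immunoproteasome, read 5.94, 5.46, 6.24 and 6.27 against 4.18 to 5.42 (2.42-fold, SE 0.25, adjusted p = 0.00325), with its second probe also called. TAP1, which carries peptides into the endoplasmic reticulum, rose 2.08-fold (adjusted p = 0.0158) and NLRC5, the activator of class I genes, rose 2.12-fold (adjusted p = 0.027), both with overlap and with calls lost without any 1 of 4 animals (adjusted p up to 0.0686 and 0.0947). None of 34 interferon-stimulated genes was called, with a median of 0.29, and IFIT1 and IFIT2 differed by 0.17 and 0.29. The median of the interferon-stimulated group was -0.07 at 6.7 Gy and 0.69 at 7.4 Gy. Of 19 genes of the amino acid response and unfolded protein response ALDH1L2, a mitochondrial folate enzyme, rose 2.66-fold to -0.20, -1.29, -0.18 and -0.44 from a median of -1.76 (adjusted p = 0.0063), and PHGDH, the first enzyme of serine synthesis, fell 2.39-fold (adjusted p = 0.00777). Each lost its call without 1 animal of day 12, ALDH1L2 without 6.7 Gy replicate 1 (adjusted p = 0.0514) and PHGDH without 7.4 Gy replicate 1 (adjusted p = 0.0707). Of 6 genes induced by the aryl hydrocarbon receptor none was called, and CYP1A1 ran from -8.24 to 5.65 within day 4, with CYP1B1 differing by -0.27 (adjusted p = 0.461).

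Markers of immune cells were called at 0% to 13.3% of each group, against 3.09% of all genes. Of 15 B cell genes 2 rose (13.3% called). TNFRSF13C, the receptor of the survival factor BAFF, read -3.69, -4.69, -3.72 and -4.18 on day 12 and -7.30 to -4.85 on day 4 (3.21-fold, SE 0.33, adjusted p = 0.00306; 0.63 and not called with normexp), and FCRLA, a Fc receptor-like protein of B cells, rose 2.69-fold to 0.24, -0.02, 0.25 and -0.38 from -1.89 to -0.66 (adjusted p = 0.00874). FCRLA lost its call without the 7.4-Gy animal of replicate 1 on day 12 (adjusted p = 0.0615), and its other probe differed by 0.28. The defining B cell markers MS4A1 (0.70) and CD79A (0.28) were not called, and MS4A1 was well above background on 9 of 24 arrays. The level of the B cell group was -1.02 to -0.32 relative to the controls on day 12 and -1.30 to -0.65 on day 4. None of 11 plasma cell genes was called, with JCHAIN at -0.17 (adjusted p = 0.743) and MZB1 at 0.55 (adjusted p = 0.485).

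Of 22 T and NK cell genes 2 fell (9.09% called). CCR7, the receptor of CCL19, which leads lymphocytes into lymphoid tissue, read -4.12, -4.70, -4.06 and -2.27 against -3.59 to -1.22 (3.00-fold, SE 0.37, adjusted p = 0.0076), with the 7.4-Gy animal of replicate 2 on day 12 within the range of day 4. The brightest probe of CCR7 is the called one, and its other probe differed by 0.05. Its call was lost without the 7.4-Gy animal of replicate 1 on day 12 (adjusted p = 0.0792). The invariant T cell genes CD3E and CD3D differed by -0.20 and -0.08. None of 19 macrophage and dendritic cell genes was called, although CSF1R, the receptor that maintains macrophages, differed by -0.59 (adjusted p = 0.00872) and CD68 by -0.30. Of 10 neutrophil genes none was called, and S100A8 (-0.31) and S100A9 (-0.54) were raised in the standing-apart animal of day 4, in which S100A9 read 2.14 against -1.08 in the next. Of 9 mast cell and eosinophil genes GATA2, a transcription factor also of endothelium, fell 2.13-fold (adjusted p = 0.013), a call lost without any 1 of 3 animals (adjusted p up to 0.0598) and with normexp (difference -0.65).

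The globin genes rose, with calls that depend on 1 animal. Among 12 erythroid and platelet genes HBB and HBA, the globin chains of haemoglobin, rose 4.45-fold (SE 0.53, adjusted p = 0.0111) and 2.35-fold (SE 0.29, adjusted p = 0.00846). HBB read -2.50, -3.02, -2.58 and 0.20 on day 12, -4.90 to -2.24 on day 4 and 0.80 to 2.76 in the controls, so that 1 animal, 7.4 Gy replicate 2, was far above the other 3 and all stayed below the controls. HBA followed the same order at -0.89, -1.07, -0.90 and 0.11. Without that animal the differences were 1.46 (adjusted p = 0.0777) and 0.98 (adjusted p = 0.0508) and neither was called, and HBB lost its call also without the 6.7-Gy animal of replicate 1. The globin genes are close paralogs that can share a probe's signal. HBG2, another globin, differed by 0.75 without overlap (adjusted p = 0.00105).

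Connective tissue genes had mostly negative differences, most of them not called, where 3.09% of all genes were called. Of 23 fibroblast and collagen genes 21 had negative differences, the median was -0.64, and 2 fell (8.70% called). THBS1, a matrix glycoprotein that activates TGF-beta, read -3.27, -2.07, -3.03 and -3.19 against -2.18 to -1.04 (2.29-fold, SE 0.27, adjusted p = 0.00642), and COL1A2, a chain of type I collagen, read 1.57, 0.54, 2.20 and 1.32 against 1.54 to 3.02 (2.03-fold, SE 0.24, adjusted p = 0.00835). Both overlapped, COL1A1 differed by -0.08, and the second probe of COL1A2 differed by -0.19. THBS1 lost its call without the 6.7-Gy animal of replicate 1 on day 12 (difference -0.90, adjusted p = 0.0577) and COL1A2 without any 1 of 5 animals. Relative to the controls the level of the group was -0.01 to 0.19 on day 12 and 0.19 to 1.24 on day 4, and without the standing-apart array, the lowest of day 4, the median difference was -0.67. DCN (-0.90, adjusted p = 0.0131) and POSTN (-1.15, adjusted p = 0.0765) did not overlap. Of 15 matrix metalloproteinases and inhibitors none was called, with MMP2 at -0.96 (adjusted p = 0.00569) and MMP1 at -0.70 (adjusted p = 0.0345), both without overlap.

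Of 16 genes of endothelium and lymphatics 14 had negative differences, with a median of -0.52, and 2 fell (12.5% called). VWF, the platelet adhesion protein that endothelium stores, read -0.23, -0.84, -0.77 and -0.77 against -0.57 to 1.41 (2.53-fold, SE 0.28, adjusted p = 0.00403), with only the lowest animal of day 4 overlapping. ERG, a transcription factor of endothelium, fell 2.0-fold (SE 0.20, adjusted p = 0.00336), close to the limit, and missed 2-fold without any 1 of 7 animals. With normexp ERG differed by -0.51, and its other probe differed by 0.08. Of 18 genes of coagulation and fibrinolysis, VWF among them, 2 fell (11.1% called) and 13 differences were negative, with a median of -0.35. A2M, a broad protease inhibitor of this group, fell 2.01-fold without overlap (adjusted p = 0.0043) and likewise missed 2-fold without any 1 of 6 animals (differences from -0.95). In enteric neurons and glia 14 of 16 differences were negative with a median of -0.61 (0.18 with array position as a covariate) and none was called, with ELAVL4 at -0.66 (adjusted p = 0.14) and UCHL1 at -0.55 (adjusted p = 0.2). Of 12 smooth muscle genes none was called, and ACTG2 differed by -0.08 and ACTA2 by -0.29. ADIPOQ, the fat cell hormone adiponectin, differed by -2.76 without a call (adjusted p = 0.0574) and ran from -3.26 to 2.15 on day 4, and LEP differed by 0.33 (adjusted p = 0.236).

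Signals that stroma sends to the epithelium did not move together. Of 21 such genes 16 had negative differences, with a median of -0.50, and 1 rose and 2 fell (14.3% called). FGF10, a growth factor of mesenchyme that acts on epithelium, rose 2.79-fold to -2.86, -2.97, -2.91 and -3.79 from -5.51 to -4.14 (SE 0.23, adjusted p = 0.000649), without overlap. FGF7, which uses the same receptor isoform, fell 2.09-fold to between -3.69 and -3.14 from a median of -2.26 (SE 0.22, adjusted p = 0.00397), also without overlap. BMP7 fell 2.26-fold with a second probe also called (SE 0.30, adjusted p = 0.0137). The R-spondin RSPO3, which amplifies Wnt signals, differed by -0.88 (adjusted p = 0.0471). FGF7 missed 2-fold without any 1 of 4 animals (differences from -0.94), BMP7 lost its call without any 1 of 2 (adjusted p up to 0.0783), and FGF10 was called on leaving out each animal. With normexp correction none of FGF10 (difference 0.80), FGF7 (-0.74) and BMP7 (-0.99) was called.

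**Figure D4:**
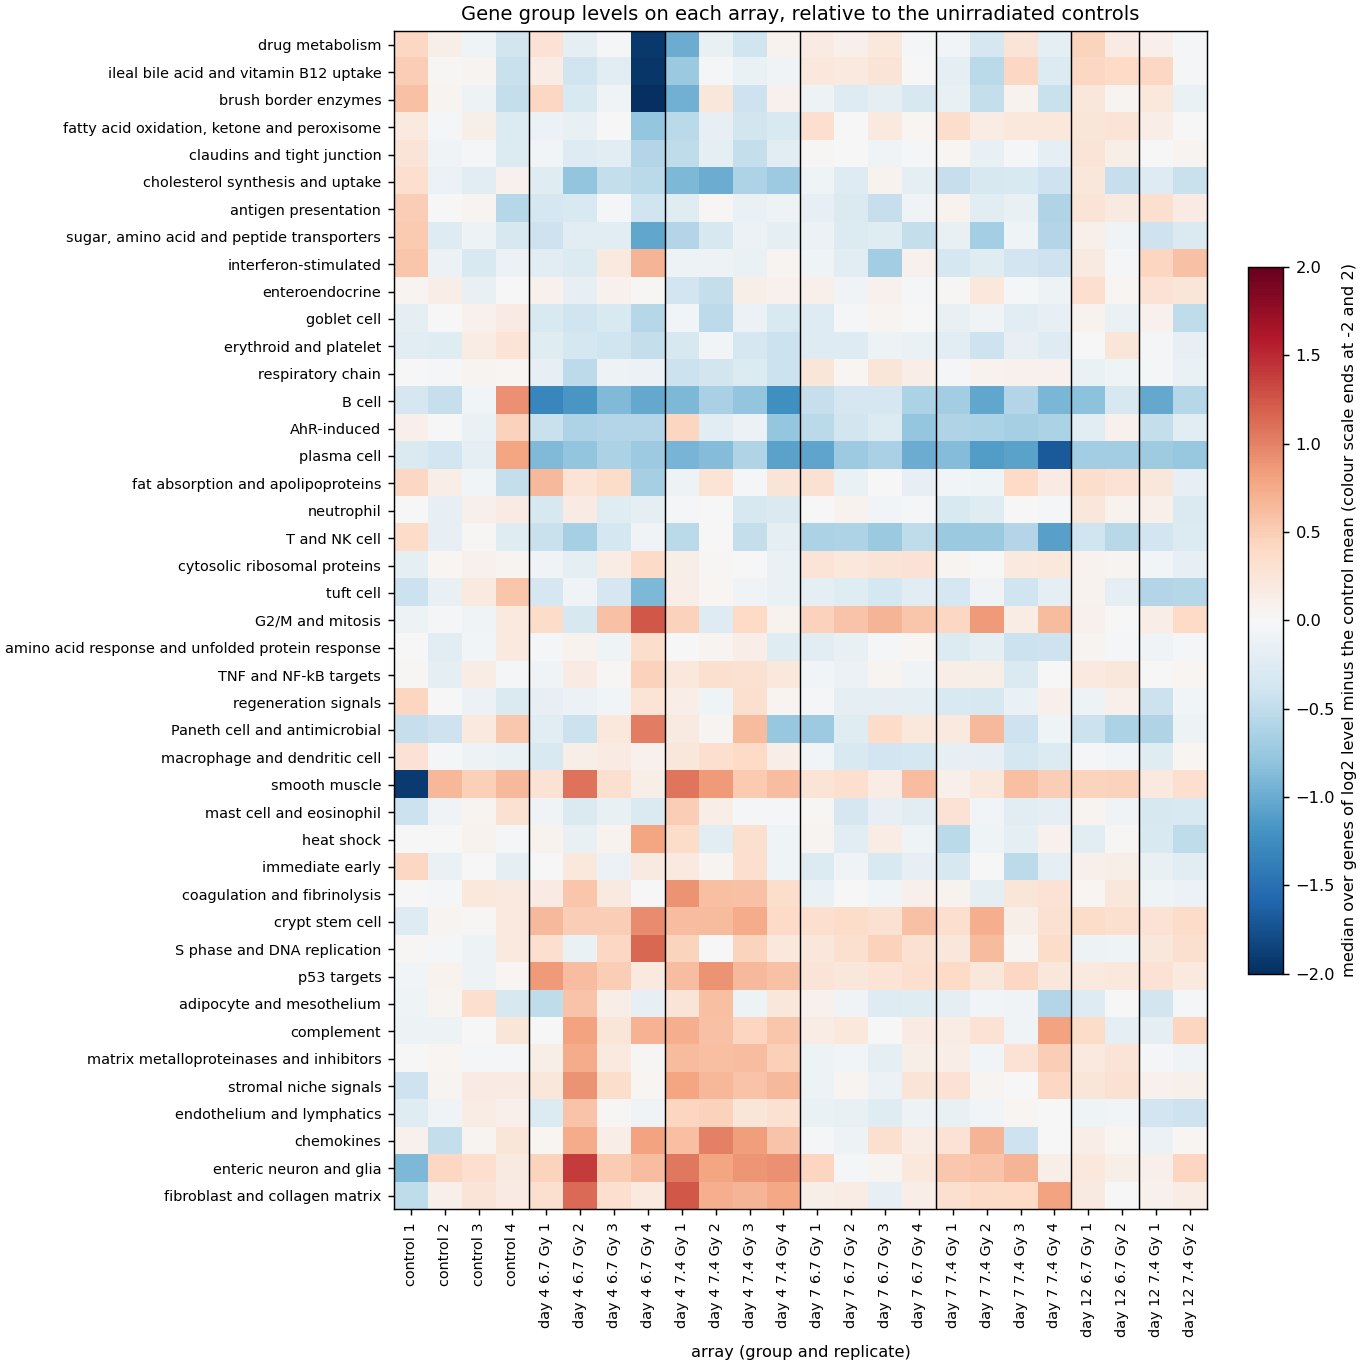
Level of each gene group (rows) on each of the 24 arrays (columns, by group and replicate), as the median over its tested genes of the log2 level minus the mean of the 4 controls, with blue below and red above the controls and colours ending at -2 and 2. Fibroblast and neuron groups are redder on most arrays of day 4 than on day 12, but the days touch. The lowest of day 4 is 0.19 and 0.44, and the highest of day 12 is 0.19 and 0.43. The day 4 array of 6.7 Gy replicate 4 is set apart by low drug metabolism (-1.93) and brush border (-2.31) levels.

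The comparison was also made within each dose, where 2 animals of day 12 stand against 4 of day 4. At 6.7 Gy 937 probes were called (2.59%), with 653 higher (1.81%) and 284 lower (0.787%), and at 7.4 Gy 650 (1.8%), with 285 higher (0.789%) and 365 lower (1.01%). Of the 994 probes called with doses pooled, 399 were also called at 6.7 Gy, 362 at 7.4 Gy and 156 at both. Over all 36108 probes the differences at the 2 doses, which share no array, correlated across probes at r = 0.46, and probes are not independent replicates. The counts within a dose rest on single animals, since leaving out 6.7 Gy replicate 1 of day 12 left 60 calls at 6.7 Gy and leaving out 7.4 Gy replicate 1 left 158 at 7.4 Gy.

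No probe was called for a difference between the doses by limma's interaction term, with 1195 probes past an unadjusted p of 0.05 and 2-fold, 233 with a larger day 12 minus day 4 difference at 7.4 Gy and 962 with a larger one at 6.7 Gy. The smallest adjusted p was 0.182, shared by UGT3A1 and KLF7, a transcription factor of the Kruppel-like family. UGT3A1 was higher on day 12 by 3.81 at 6.7 Gy (adjusted p = 0.000111) and by 0.60 at 7.4 Gy (adjusted p = 0.4), a difference between doses of -3.20. KLF7 read -3.17 and -3.21 on day 12 in the 6.7-Gy animals and -4.09 and -4.60 in the 7.4-Gy animals, with -4.70 to -3.48 on day 4. For both genes the animals of the lower dose were above all of day 4 and those of the higher dose were not, apart from 1 animal of UGT3A1 on day 12 at -3.13.

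**Figure D5:**
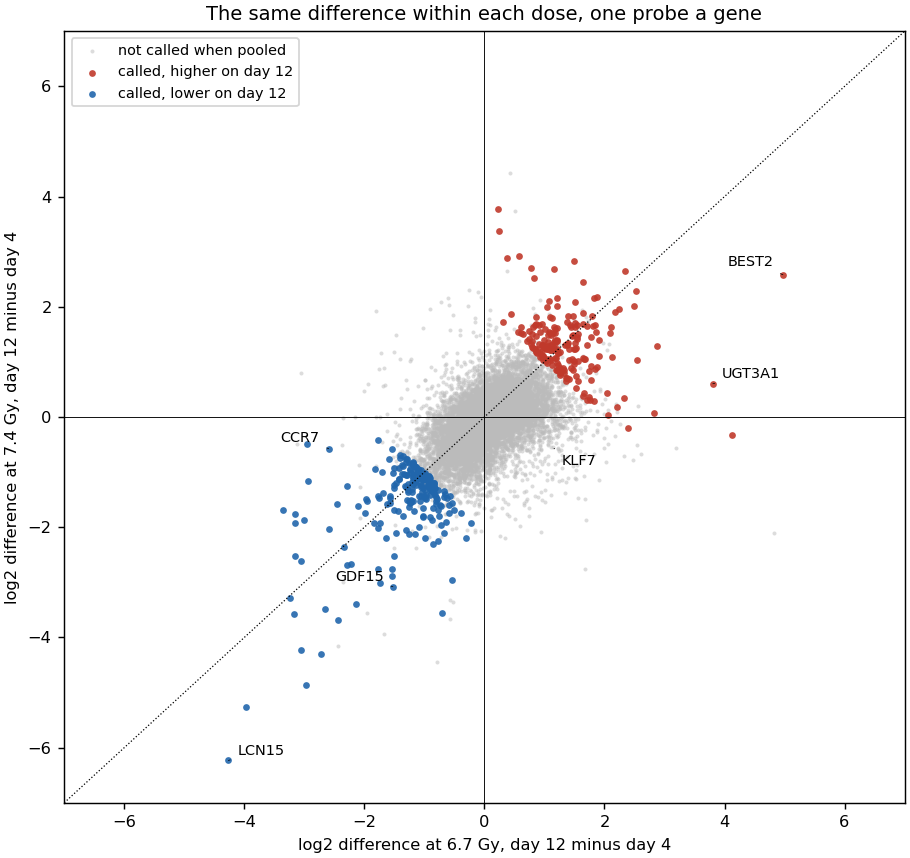
Log2 difference between day 12 and day 4 at 6.7 Gy (x axis) and at 7.4 Gy (y axis) for 12963 genes, each by its brightest tested probe, with the line of equal differences dotted. Red and blue points are genes called higher and lower on day 12 with doses pooled, a choice that itself favours like differences at both doses, and UGT3A1 lies off the line at 3.81 and 0.60.

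Day 12 arrays shared slides with arrays of day 4. With slide as a fixed block 1096 probes were called with doses pooled, of which 892 were among the 994. In that fit 4 named genes lost their call, CD55 (adjusted p = 0.0707), CXCL8 (adjusted p = 0.053), CLSPN (difference -0.997) and IL17RB (difference 0.913). CXCL8 lost it also with scan session as a block (adjusted p = 0.0541). With array position as a linear covariate, 1 probe was called, all 72 named calls were lost and the standard errors grew 2.81-fold at the median. Differences moved as well. As cases that shrank, CNDP1 went from -2.532 to -0.555, CLIC6 from -2.43 to -0.64 and PHGDH from -1.259 to -0.058. The part of position in the calls cannot be told apart from that of day.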

How the data were processed

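Total RNA of ileum was labelled with Cy3 by the authors and hybridized to Agilent single-colour Rhesus Macaque arrays, 1 for each animal, without pooling. Feature Extraction 11.0.1.1 gave, per the file headers, a background-subtracted intensity for each spot with flags for outliers and for signal well above background. The authors' deposited normalized log2 values, shifted to the 75th percentile of each array and centred on each probe's median over the 24 arrays, were used as an alternative. Their gene symbols follow an older annotation, and 8317 probes were renamed by accession and 2936 by gene ID through RefSeq's gene table (assembly T2T-MMU8v2.0). Groups were read from sample titles.

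Log2 intensities were averaged over the spots of a probe, and the 75th percentile of each array, taken without control spots, was subtracted. Of 43603 probes, 36108 were tested, those that any of the 7 groups showed well above background on all its arrays. Limma 3.58.1 in R 4.3.3 fitted 7 group means over 24 arrays with 17 residual degrees of freedom, and the contrast is the mean over doses of day 12 minus day 4. Where no array of a group was well above background, a fold is given as "at least", with signals of that group raised to the lowest signal well above background on their array. A gene is its brightest tested probe. The number of arrays limits precision. Normexp used spot medians in place of means, with offset 50.

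The genes named are the 12 largest rises and falls among called genes whose animals of day 12 and day 4 do not overlap, up to 4 called genes of each gene group with the largest difference (otherwise the first 2 tested), and the 2 smallest interaction p-values. Some genes that this rule names are not reported here. Others were chosen after their values were seen. The comparison, the gene groups and this rule were chosen with earlier results of these data known. Alternatives were background correction, scaling, filters, models and leaving out arrays. Scan session as a block and leaving out the 3 day 4 arrays with under 78% of probes detected were added after seeing the data. Replicate numbers do not pair animals.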

Additional observations from a re-analysis of the deposited data

Results flagged for a closer look

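Among 208 sets of values (104 named genes on day 12 and on day 4), 17 held 1 animal whose gap to the next was large for the range of its group, where chance gives about 1 in 20, or 10.4. On day 12 DAK was low at 5.57 in 7.4 Gy replicate 2, with the next at 6.24, and CNDP1 was low at -4.22 in 6.7 Gy replicate 1, with the next at -3.30. LHFPL7 was high at -5.47 in 7.4 Gy replicate 1. The 7.4-Gy animal of replicate 2 was high for HBB at 0.20 and HBA at 0.11 and for CDK1 at -0.27, and low for FGF10 at -3.79. The 6.7-Gy animal of replicate 1 was high for VWF at -0.23 and HMGCS1 at 3.83.

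On day 4 the 6.7-Gy animal of replicate 4 accounted for 5 of 8 such values. MEP1A was low there at 1.18 and ENPEP at 4.23, DDB2 was low at 3.12, and S100A9 at 2.14 and CCL23 at 3.29 were high. CLIC6 was high at 0.25 in 6.7 Gy replicate 2, SLC1A1 low at -0.37 in 7.4 Gy replicate 1, and VWF low at -0.57 in 6.7 Gy replicate 1.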

How the results depend on the processing

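Of 3208 recomputed values of 104 named genes, 2837 kept direction and side of the threshold, 330 lost a call, 20 gained one and 21 turned sign. Of the 72 named genes called, 35 stayed called when each of the 12 arrays was left out. Under every alternative apart from array position 27 stayed called, and 0 with array position included. Called probes were 409 with normexp (251 higher, 158 lower, 322 at 6.7 Gy, 417 at 7.4 Gy and 1 for the difference between doses), and 367 were higher among probes above background on all 24 arrays. With slide as a fixed block 153 were called at 6.7 Gy and 338 at 7.4 Gy, with scan session 376 at 7.4 Gy, and without the 3 day 4 arrays of few detected probes 244 at 6.7 Gy. With array position as a linear covariate 1 probe was called (1 higher and 0 lower), as was 1 at each dose, and 3514 passed the unadjusted p and 2-fold. The methods' t-test with Benjamini-Hochberg adjustment called 597 (292 higher), and 25 named genes lost their call. Among these were UGT3A1, C16H17orf78 and HBB, at adjusted p of 0.0561, 0.0522 and 0.0779 in that t-test. Adjusted p alone called 6322 (3865 higher, 2457 lower, 2690 at 6.7 Gy, 1209 at 7.4 Gy), and a fold change of 1.5 called 3512 (1885 higher, 1627 lower, 2340 at 6.7 Gy, 1167 at 7.4 Gy). Leaving out 1 array gave 594 to 1184 calls (301 to 677 higher, 293 to 536 lower), 60 to 1336 at 6.7 Gy, 158 to 963 at 7.4 Gy and 0 to 18 between doses. The causes were not tested.

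Replicate numbers did not pair the animals, as deviations of same-numbered arrays correlated at -0.19 to 0.04. With the replicate block 852 probes were called (444 higher, 408 lower), 686 at 6.7 Gy, 480 at 7.4 Gy and 0 between doses, 16 named genes lost their call, and CDK1 turned to 0.005, FOS to -0.158 and ACTG2 to 0.086. With array position as a covariate MUC2 turned to 0.619, CYP1B1 to 0.673, IFIT1 to -0.863, IFIT2 to -0.626, JCHAIN to 1.164, ELAVL4 to 0.397, UCHL1 to 0.376 and ADIPOQ to 0.238. MUC2 was 0.031 as the mean of its probes, and without the 3 arrays CDK1 was 0.179 and S100A8 0.16. Leaving out 1 array gave -0.442 to 0.072 for MUC2, -0.251 to 0.108 for CDK1, -0.159 to 0.583 for FOS, -0.013 to 0.332 for IFIT1 and -0.912 to 0.495 for S100A8. No gene that turned sign had been called. The median turned sign under some alternative in 14 of 43 gene groups, with array position in enteric neurons (0.181), interferon-stimulated (-0.465), respiratory chain (-0.202), B cell (-0.031), mast cell (0.378) and tuft cell genes (0.062). Dim probes are limited by background.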

Other observations

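Further genes of named function had all 4 animals of day 12 outside the other 20 arrays, and these were chosen after their values were seen. By their brightest probes NAGS, which makes the activator of the urea cycle's first enzyme, was at 0.68 to 0.86 on day 12 against at most 0.62 elsewhere (2.98-fold above day 4, limma adjusted p = 0.000838). DHRS13, a dehydrogenase, was 2.44-fold higher at 1.05 to 1.44, and NDST2, which modifies heparan sulfate, was 2.11-fold higher at 1.77 to 2.08. On the lower side, ASS1, which makes argininosuccinate from citrulline, was at -0.01 to 0.20 on day 12, 0.83 to 3.16 on day 4 and no lower than 0.36 on any other array (3.34-fold lower than day 4, adjusted p = 0.00179). SFRP4, a secreted modulator of Wnt signals, was 2.99-fold lower at -3.49 to -3.26, and RAD51C, of homologous recombination repair, was 2.12-fold lower at -0.66 to -0.40, against 0.26 to 0.85 on day 4 (adjusted p = 3.29e-05). TYMP and TLR9 lay above all other arrays on day 12 only by a probe that is not the brightest of the gene.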
